A study of Glycine max with 3 samples.

Results

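The miR482, miR2118 and miR2109 families of soybean (Glycine max) were followed in leaves of the cultivar Taiwan 75, a vegetable soybean, of which the seeds are eaten green. All sequences were taken whose deposited name puts them in 1 of these 3 families, on either arm of the hairpin, with 1 entry kept per distinct sequence. This gave 10 of the 381 distinct sequences of the profile tables, 6 named miR482, 2 named miR2118 and 2 named miR2109, which stood in 14 of 587 table entries. The choice used names and no measured value. Among the degradome data, 7 of 898 pairs of a miRNA and a transcript belonged to these families.

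Small RNA was sequenced from 1 library of chilled and 1 library of control leaves. For both conditions the records give 25 °C in the day, 17 °C in the night and 12 h of light at a photon flux of 600 µmol. Chilled plants at the stage of a single true leaf were held at 4 °C for 24 h, while control plants were not chilled. In each condition leaves of 3 replicates were pooled before sequencing, so no spread between replicates can be had, and no test between conditions was possible. A further library of chilled and control leaves mixed was a degradome library, which reads the 5′ ends of cut messenger RNAs; its label gives a stage after pollination that differs from the leaf stage of the other libraries. A leaf holds several cell types, and fewer cells of a type and less RNA per cell cannot be told apart in such samples.

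The sequences of the miR482 and miR2118 families form a superfamily whose 3p strand pairs with messenger RNAs of NB-LRR genes, the intracellular receptors by which plants recognise pathogens, at the stretch that encodes the P-loop of the nucleotide-binding domain. miR2109, known best from Medicago truncatula, acts from its 5p strand on the TIR class of the same receptors. When such a strand is 22 nt long, its cut can start the production of phased secondary small RNAs from the target, which spreads silencing over related receptor genes. In all 3 families the other strand of the duplex is usually regarded as the passenger.

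The deposited sequences are shown because length, strand and seed differ between them; they are written in DNA letters, 5′ to 3′, with the seed (bases 2 to 8) in capitals. The prefix pvu marks a name taken from the common bean, and p5 or p3 at the end of a name marks an arm that the authors added to a known hairpin. The 3p sequences were these.
miR2118a-3p, 22 nt: tTGCCGATtccacccattccta
miR482a-3p, 22 nt: tTCCCAATtccgcccattccta
miR482b-3p, 22 nt: tCTTCCCTacacctcccatacc
MIR2109-p3, 21 nt: gGAGGCGTagatactcacacc
The 5p sequences were these.
pvu-miR482-5p, 21 nt: gGAATGGGctgattgggaagc
MIR482c-p5, 21 nt: tGGGAATGggctgattgggaa
miR482b-5p, 21 nt: tATGGGGGnattgggaaggaa
MIR482e-p5, 22 nt: cAAAATTGggggaaggcatggg
miR2118a-5p, 22 nt: gGAGATGGgagggtcggtaaag
miR2109, 21 nt: tGCGAGTGtcttcgcctctga

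No seed was shared between any of the 10 sequences, nor with any other of the 381. miR2118a-3p and miR482a-3p were nevertheless the same at 19 of 22 positions. Counted from 1 at the 5′ end of miR2118a-3p, with its base first, they differed by G3C, G6A and A12G, of which the first and second lie in the seed. miR482b-3p aligned to miR482a-3p with a shift of 2 bases and matched it at 15 of 20 aligned positions, and to miR2118a-3p at 14 of 20. The 3p strand of miR2109 was unlike them, with 9 of 20 aligned positions the same as in miR2118a-3p. pvu-miR482-5p and MIR482c-p5 overlapped over 19 bases without a difference and are shifted copies of each other, so reads that cover only their shared part could go to either.

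The 10 sequences came from 7 hairpins, whose coordinates are given as deposited; no build is named in the sources used here. The miR482a hairpin lies on the plus strand at chr2:7873049-7873174 and the miR482c hairpin on the minus strand at chr18:57154765-57154854. miR2109 has a hairpin on the minus strand at chr4:36995873-36995969. The remaining 4 hairpins form pairs. On chromosome 10 the hairpin of miR482b, chr10:49165318-49165412, lies 4298 bases from that of miR2118a, chr10:49169711-49169821, both on the minus strand. On chromosome 20 the miR2118a hairpin, chr20:36444857-36445026, lies 10407 bases from the miR482b hairpin, chr20:36455434-36455550, both on the plus strand. In the direction of transcription miR2118a comes before miR482b at both places. Both miR2118a strands, miR482b-5p and miR482b-3p match the hairpins at both places, so their reads cannot be assigned to chromosome 10 or 20; MIR482e-p5 matches the chromosome 20 hairpin alone.

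Within 20000 bases and on the same strand, the 348 hairpin loci of the tables held 8 further pairs of hairpins of different families that involve none of these 3 families, and a miR156 hairpin lies 10205 bases from the miR482c hairpin. RefSeq's gene table for Glycine_max_v4.0, used for names and gene order only, lists 7 miRNA genes of these families on the same chromosomes. On chromosome 10 it names them MIR482D and MIR2118B and on chromosome 20 MIR2118A and MIR482B. In each place 1 gene stands between them, a long non-coding RNA (LOC100500552 on chromosome 10 and LOC121174288 on chromosome 20).

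Hairpins are shown for miR482a, where the 5p arm gave most reads, for miR482b on chromosome 20, which holds MIR482e-p5, and for miR2118a, where the 3p arm gave most reads; capitals mark the sequences listed there.
miR482a hairpin, chr2:7873049-7873174, plus strand: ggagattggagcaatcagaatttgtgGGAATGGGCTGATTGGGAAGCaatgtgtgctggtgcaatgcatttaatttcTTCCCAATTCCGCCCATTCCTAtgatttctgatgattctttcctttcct
miR482b hairpin, chr20:36455434-36455550, plus strand: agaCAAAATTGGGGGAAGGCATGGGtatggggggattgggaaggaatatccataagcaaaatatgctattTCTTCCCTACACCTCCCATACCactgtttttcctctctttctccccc
miR2118a hairpin, chr10:49169711-49169821, minus strand: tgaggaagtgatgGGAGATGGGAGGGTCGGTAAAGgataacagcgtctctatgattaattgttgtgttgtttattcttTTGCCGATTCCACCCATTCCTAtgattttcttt

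In the deposited folds, pvu-miR482-5p paired with miR482a-3p over 18 bases and left 2 unpaired bases at the 3′ end of each strand, the shape that Dicer-like enzymes usually leave. miR2118a-5p with miR2118a-3p (18 paired bases at both loci), miR482b-5p with miR482b-3p (16 at both loci) and miR2109 with MIR2109-p3 (17) had the same overhang of 2 bases at both ends. MIR482c-p5 differed: it paired with miR482a-3p over 20 bases with an overhang of 0 at both ends, on chromosome 18 and also on chromosome 2, where its bases occur but it is not listed. MIR482e-p5 is no partner of miR482b-3p, with 2 bases paired to it. It ends where miR482b-5p begins on the chromosome 20 hairpin, with 0 bases between them. The table lists miR482b-5p at the chromosome 10 hairpin only, so the adjacency is one of positions on the chromosome 20 hairpin, and whether both small RNAs come from it was not tested.

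**Figure D1:**
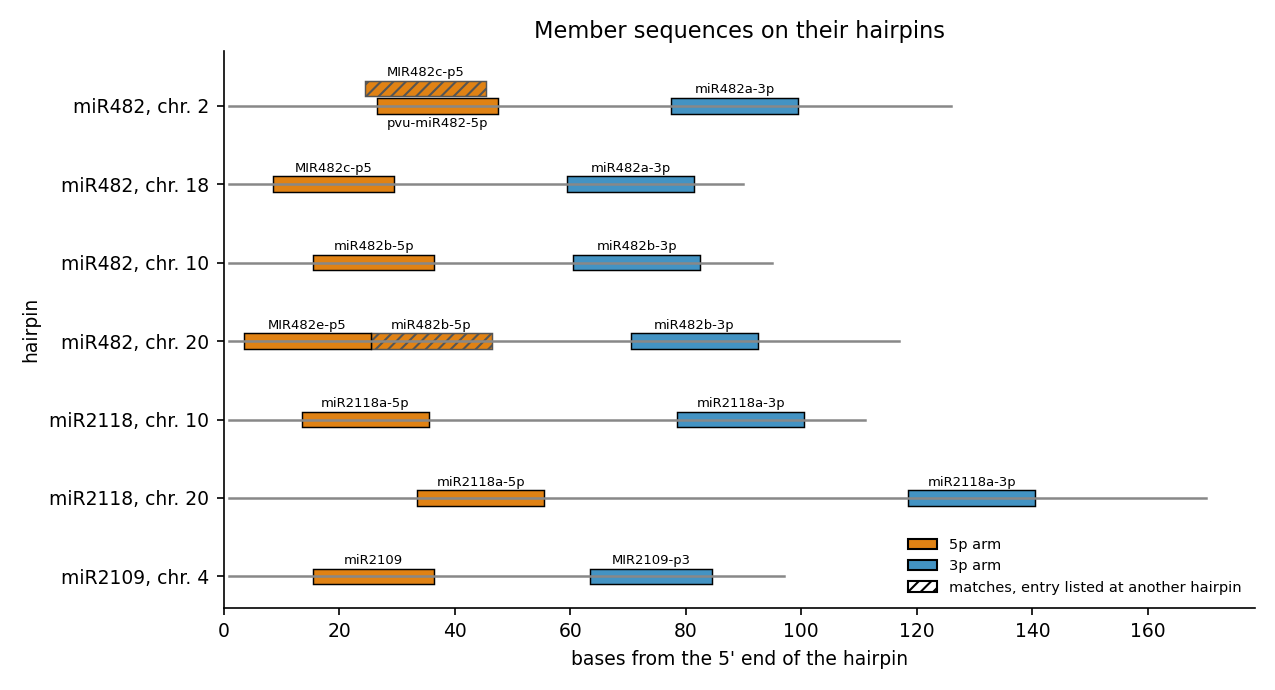
Positions of the 10 sequences on their 7 hairpins, in bases from the 5′ end of each hairpin; boxes are 5p or 3p sequences, and hatched boxes mark a match at a hairpin where the table does not list the sequence. MIR482e-p5 and miR482b-5p touch on the chromosome 20 hairpin, and pvu-miR482-5p and MIR482c-p5 are shifted by 2 bases on chromosome 2.

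The sequence with the most reads among the 10 was miR2118a-3p, the strand that recognises NB-LRR messenger RNAs. It had 7333 reads in the chilled library and 4715.8 reads in the control library, ranks 14 and 16 among the 381 sequences. miR3522 alone took most reads of both libraries; without it, miR2118a-3p made up 1.55% of the chilled and 1.03% of the control table. pvu-miR482-5p came second, at 4302.5 chilled and 4242.5 control reads (rank 19 in both libraries). Fractions arise in the deposited values, so reads may have been shared out over loci.

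The order of the 10 sequences by reads was the same in both libraries. After these, miR2118a-5p had 1213 chilled and 585.5 control reads, MIR482c-p5 545.5 chilled and 478.5 control reads, and miR2109 275 chilled and 376 control reads. miR482b-3p had 217.5 chilled and 139.5 control reads, and miR482a-3p 131 chilled and 93.5 control reads. The scarcest were MIR482e-p5 with 65 chilled and 45 control reads, miR482b-5p with 34 chilled and 25 control reads, and MIR2109-p3 with 12 chilled and 18 control reads. Most neighbours in this order had exact 95% Poisson intervals that did not overlap. The exceptions were miR2109 and miR482b-3p in the chilled library and, in the control library, MIR482e-p5 with miR482b-5p and miR482b-5p with MIR2109-p3. Molecules were not tagged before amplification, so these and all intervals below cover counting error only.

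**Figure D2:**
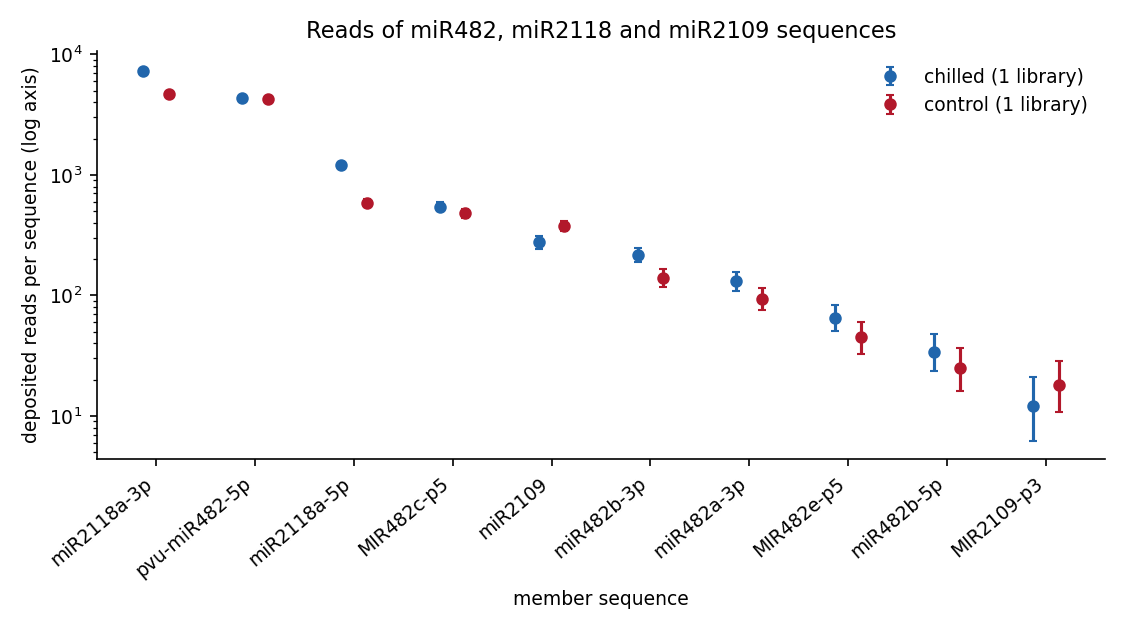
Deposited reads of each sequence on a log axis in the chilled library (blue, left) and the control library (red, right), with exact 95% Poisson intervals that cover counting error. The order from miR2118a-3p (7333 chilled and 4715.8 control reads) down to MIR2109-p3 (12 and 18 reads) is the same in both libraries.

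The libraries were then compared after scaling by TMM, which sets the scale of the chilled library 0.24 log2 units above that of the control. No sequence of the 3 families differed by 2-fold or more: of 10 tested, 0 were higher and 0 were lower in the chilled library. Over all 213 sequences with at least 10 normalised reads in a library, 14.1% were higher (30 sequences) and 16.4% were lower (35 sequences) by that size. The median absolute log2 ratio was 0.34 over the 10 sequences and 0.67 over the 213. Of the 213, 99 pass a minimum of 100 normalised reads, against 7 of the 10. Over the 92 other sequences that pass it, the median was 0.51, and 21 differed by 2-fold or more. These counts compare single libraries and involve no test.

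In the miR2118 family both strands lay above 0 on the log2 ratio of chilled to control. miR2118a-5p stood at 0.81 (95% interval 0.66 to 0.95), a 1.75-fold higher level in the chilled library, and at 0.58 to 1.05 over the 6 scalings run. It passed the 2-fold mark with raw reads (1.05) and with a table total that leaves out miR3522 (1.01). miR2118a-3p, with far more reads, stood at 0.39 (0.34 to 0.45), or 1.31-fold higher, and at 0.17 to 0.64 over the scalings. The passenger strand thus had the higher ratio of the pair, with intervals that do not overlap.

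In miR482 the sequences lay on both sides of 0. The 3p sequences were above it, miR482b-3p at 0.39 (0.08 to 0.71) and miR482a-3p at 0.24 (-0.16 to 0.63), and summed to 348.5 reads in chilled and 233 in control leaves, a log2 ratio of 0.34 (0.09 to 0.58). pvu-miR482-5p stood at -0.22 (-0.29 to -0.16), and turned to 0.02 with raw reads. MIR482c-p5 stood at -0.06 (-0.24 to 0.12), with a sign that changed under raw reads and under the total without miR3522. MIR482e-p5 (0.28, -0.28 to 0.87) and miR482b-5p (0.19, -0.59 to 1.005) had too few reads for a direction to be detectable at this depth.

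In miR2109 both strands lay below 0 under each scaling. miR2109, the strand that acts on TIR-type receptors, stood at -0.69 (-0.93 to -0.47) and MIR2109-p3 at -0.78 (-2.02 to 0.30), a value that rests on 12 chilled and 18 control reads. miR2109 was thus 0.618 times its control level in the chilled library, and between -0.92 and -0.45 on the log2 scale over the 6 scalings. The interval left out 0 for 5 of the 10 sequences, namely pvu-miR482-5p, miR482b-3p, miR2109 and both miR2118a strands, against 133 of all 213.

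The sequences were also compared by length. All 5 sequences of 22 nt had a log2 ratio above 0, from 0.24 to 0.81 with a median of 0.39. They stayed above 0 under each scaling, although miR482a-3p came down to 0.015 with the same table total. The intervals of miR482a-3p (-0.16 to 0.63) and MIR482e-p5 (-0.28 to 0.87) span 0, so their direction is not settled. The miR2118a sequences among the 5 are strands of the same duplex and not independent. Of the 5 sequences of 21 nt, 1 was above 0, and the median was -0.22 with a range of -0.78 to 0.19. That count moved with the scaling, to 3 of 5 above 0 with raw reads and 0 of 5 with the same table total. Among these 5, the intervals of miR482b-5p, MIR482c-p5 and MIR2109-p3 span 0. The other sequences of the tables had a median of 0.47 over 35 of 22 nt, of which 22 lay above 0, and of -0.24 over 131 of 21 nt, of which 57 lay above 0. So the difference by length in these families also occurs among the others, and nothing here sets the families apart in it. Length and arm overlap in these families, as 3 of the 4 sequences from 3p arms are 22 nt long.

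**Figure D3:**
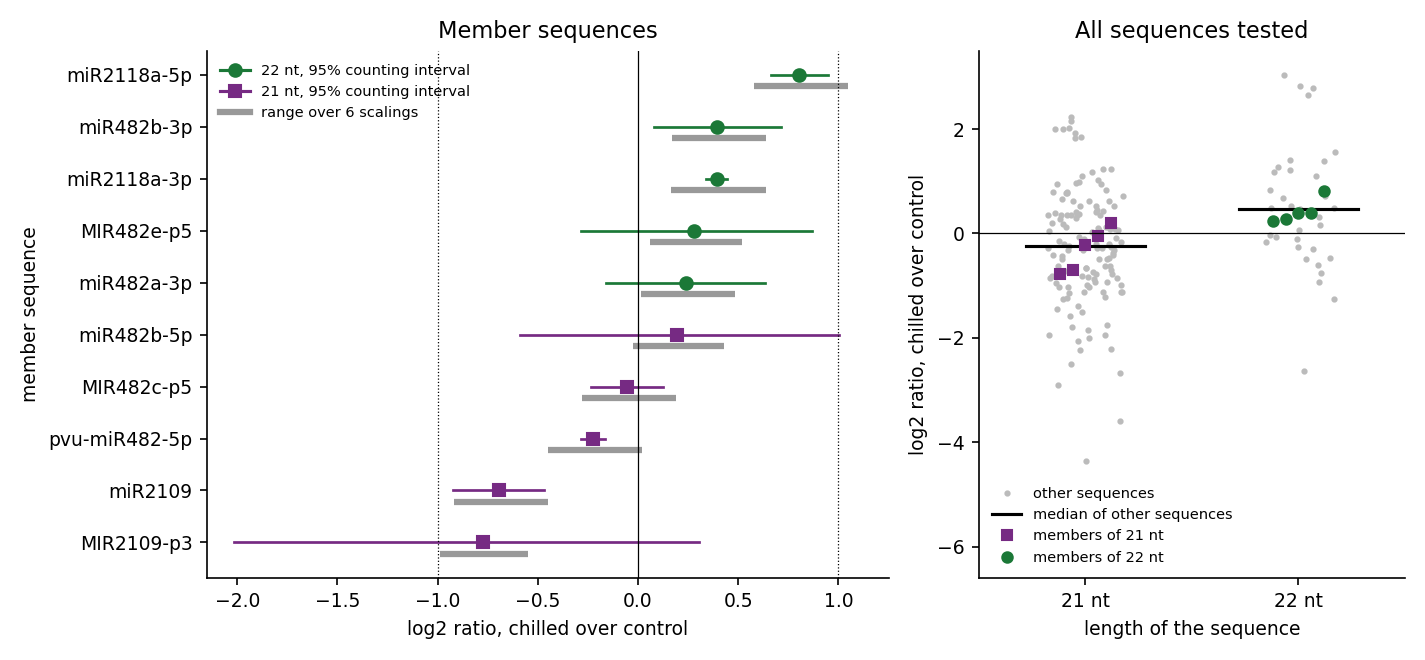
Left, log2 ratio of chilled to control for each sequence (circles 22 nt, squares 21 nt) with 95% counting intervals and, in grey, the range over 6 scalings; dotted lines mark a 2-fold difference. Right, the same ratios by length beside the other sequences tested of 21 or 22 nt (grey) and their medians (lines), -0.24 at 21 nt and 0.47 at 22 nt. Other lengths are not drawn. The 22-nt members lie between 0.24 and 0.81.

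The share of reads from each arm does not depend on how the libraries are scaled. From the miR2118a hairpins, 85.8% of reads were from the 3p arm in the chilled library (95% Wilson interval 85.1 to 86.5) and 89.0% in the control library (88.1 to 89.8). From the miR482b hairpins, set against the 5p partner, the 3p arm gave 86.5% of reads in the chilled library (81.7 to 90.2) and 84.8% in the control library (78.6 to 89.5). In these hairpins most reads came from the strand known to act on NB-LRR messenger RNAs.

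The miR482a and miR482c hairpins showed the reverse. Their shared 3p strand, the one that would act on NB-LRR messenger RNAs, gave 2.63% of reads in the chilled library (2.22 to 3.11) and 1.95% in the control library (1.60 to 2.38). The 5p strands had 37.0-fold the reads of the 3p strand in the chilled and 50.5-fold in the control library. Whether reads reflect the amounts of different strands equally was not tested. The value of miR482a-3p is listed at both loci; if each entry were a separate share of its reads, the 3p share would be 5.13% chilled and 3.81% control. miR2109 also gave most of its reads from the 5p arm, which in this family is the acting strand, with 4.18% of reads from the 3p arm in the chilled library (2.41 to 7.17) and 4.57% in the control library (2.91 to 7.11). Among 165 hairpins of other families with both arms listed and at least 10 reads in each library, 44.2% had more 3p than 5p reads in the control library.

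The 3p to 5p ratio differed between the libraries by -0.41 on the log2 scale for miR2118a (-0.57 to -0.26) and by 0.44 for the miR482a and miR482c hairpins (0.04 to 0.84), the first towards the 5p arm and the second towards the 3p arm in chilled leaves. For miR482b the shift was 0.19 (-0.68 to 1.05) and for miR2109 -0.13 (-1.35 to 1.03), so no shift was detectable at this depth. In the 165 other hairpins the median absolute shift was 0.75 (quartiles 0.35 and 1.59), larger than in any of these 4 groups of hairpins. Those 165 were measured singly, from as few as 10 reads in a library and with a pseudocount. The 4 groups were measured without a pseudocount and mostly on more reads, so the sizes are not strictly comparable.

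**Figure D4:**
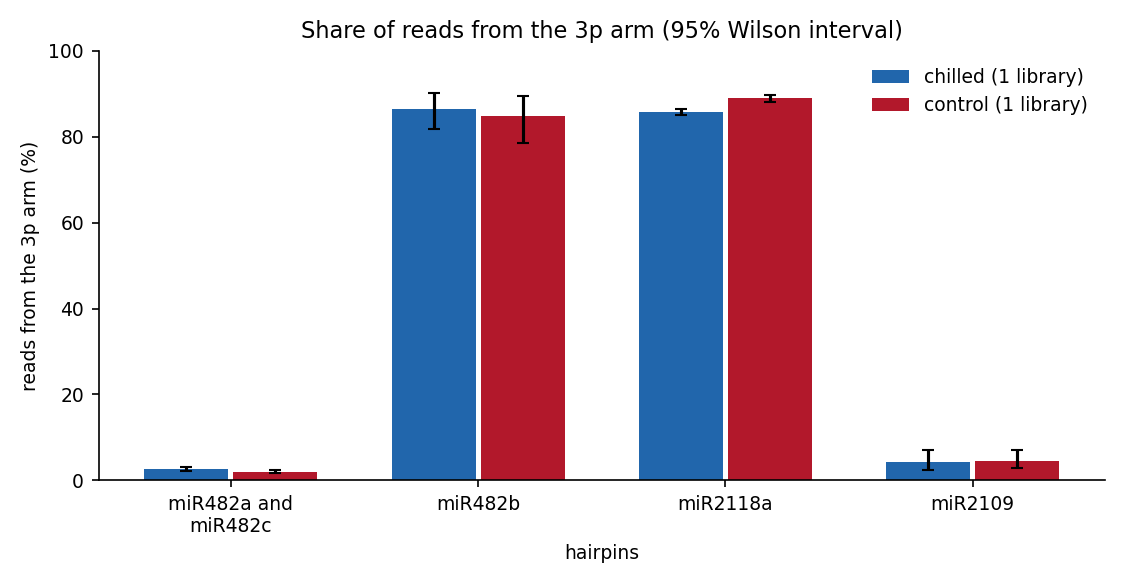
Percentage of reads from the 3p arm in the chilled (blue, left) and control (red, right) libraries, with 95% Wilson intervals. The 3p arm gave over 84% of reads for miR2118a and for miR482b in both libraries, where miR482b-3p is set against miR482b-5p alone. MIR482e-p5, on the chromosome 20 miR482b hairpin, is left out of that share. The 3p arm gave under 5% of reads from the miR482a, miR482c and miR2109 hairpins in both libraries.

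Summed over all strands, the miR2118 family had 8546 chilled and 5301.3 control reads, at a ratio of 0.44 on the log2 scale (0.39 to 0.49). The miR482 family had 5295.5 chilled and 5024 control reads, of which the 5p strands hold 4947 chilled and 4791 control reads. Its ratio was -0.17 (-0.22 to -0.11), but ran from -0.40 to 0.076 over the 6 scalings, so its sign depends on the scaling. The miR2109 family had 287 chilled and 394 control reads and a ratio of -0.70 (-0.93 to -0.48). The further families that act on NB-LRR genes, miR1507 and miR1510, had more reads, with 34182.5 chilled and 19433.5 control reads for miR1507 and 80455.5 chilled and 123306.3 control reads for miR1510. Their log2 ratios were 0.57 (0.545 to 0.596) for miR1507 and -0.86 (-0.87 to -0.85) for miR1510. Of the 18 sequences of the 5 families, all tested, 1 was higher and 1 lower by 2-fold or more, both of miR1507. Over all 213 sequences tested, 14.1% were higher and 16.4% lower by that size.

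The degradome was used to look for transcripts that these sequences cut. Because the library mixed both kinds of leaves, it carries no difference between conditions. In the authors' deposited table, pairs fall in categories from 0 to 4, where target callers usually give 0 to a cut site that is the highest of its transcript and 4 to the weakest kind of site. The abundance at the site is given there as TPB, a unit the file does not spell out. Of the 10 sequences 3 had a pair, against 86 of all 381 distinct sequences (22.6%). Of the 4 sequences from 3p arms 0 had one, and no NB-LRR transcript was listed for miR482 or miR2118. miR2118a-3p, despite its many reads, was thus without a listed target, which held for 10 of the 20 sequences with the most reads in the tables, itself among them.

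miR2109 was listed with 5 transcripts of 3 gene loci, all annotated in the authors' deposited table as disease resistance proteins of the TIR-NBS-LRR class. They were Glyma.16G213900 (cut at position 64 of transcripts 1 and 3 and at position 98 of transcript 2), Glyma.16G214500 (position 142) and Glyma.16G214800 (position 187). The target class is the one known for this miRNA, but the support in the table was weak: each pair was in category 4, with an abundance of 8.14 TPB, the smallest value of the table, an alignment score of 4 and an authors' p of 0.991. The 5 pairs share 1 miRNA, and 3 of them are transcripts of 1 gene, so they are not independent of each other.

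The other pairs involved passenger strands and no NB-LRR gene. In the authors' deposited table miR2118a-5p was listed with Glyma.08G364600, a ribosomal protein annotated as PSRP-3/Ycf65, cut at position 253 in category 2 with 244 TPB, an alignment score of 4 and an authors' p of 0.346. miR482b-5p was listed with Glyma.17G091600, annotated as a RING/U-box protein, a class that includes ubiquitin ligases, at position 173 in category 4 with 40.7 TPB, a score of 3.5 and an authors' p of 0.591.

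NB-LRR transcripts made up 5 of the 7 pairs (71.4%) of these families, against 31 of 891 pairs (3.48%) of all other families; counted once per family and locus, they were 3 of 5 loci (60.0%) against 9 of 279 (3.23%). All 31 belonged to miR1507 (4 pairs, in category 2), miR1510 (22 pairs, 4 of them in category 0) and miR5668 (5 pairs, in category 4). The 3 families were taken as ones known to act on NB-LRR genes, and the 5 pairs are all of miR2109. The contrast of shares is therefore a description and no support for that target class. Categories 0 and 1 held 0 of the 7 pairs and 33.3% of the 891. The authors' p was under 0.05 for 0 of the 7 and for 143 of the 891; within the NB-LRR pairs of the authors' deposited table, its lowest value was 0.0341 for miR1510, 0.346 for miR1507, 0.833 for miR5668 and 0.991 for miR2109.

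**Figure D5:**
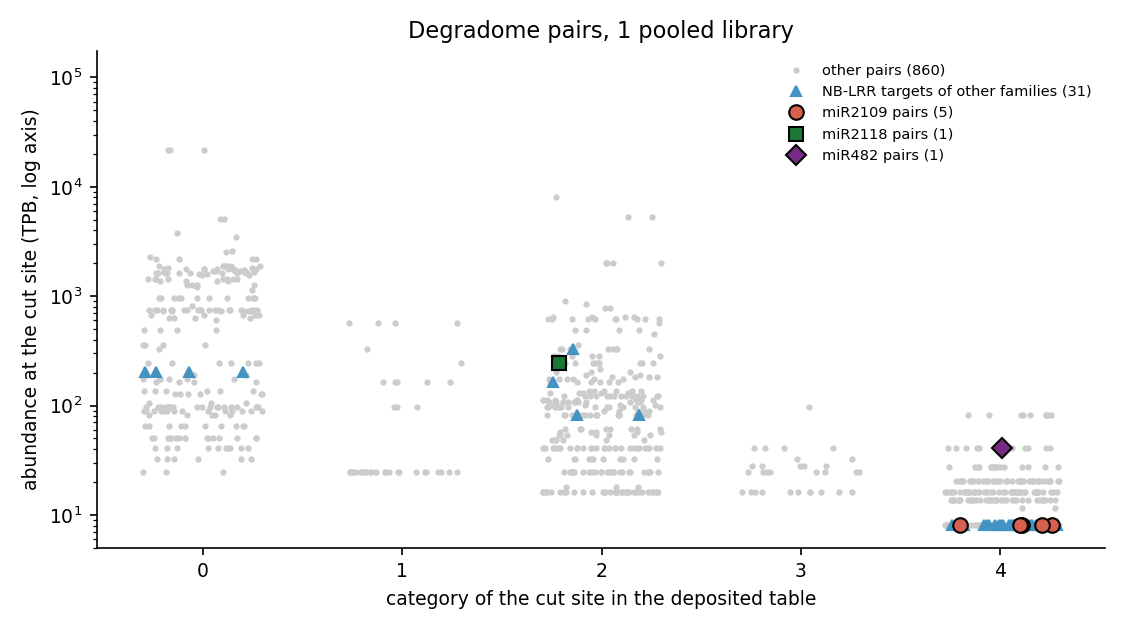
Abundance at the cut site (TPB, log axis) by category in the authors' deposited table; points are spread sideways within a category. The 5 miR2109 pairs lie at 8.14 TPB in category 4, the miR2118a-5p pair at 244 TPB in category 2 and the miR482b-5p pair at 40.7 TPB in category 4; triangles are NB-LRR targets of other families.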

How the data were processed

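The profile tables give reads for each miRNA entry, which the file headers name raw reads. Fractions occur in 339 of 587 entries, so the deposited values were treated as estimated counts. Hairpin coordinates, folds, GC percent and folding scores are as deposited. For each degradome pair the deposited table has, per the file headers, an alignment score, a signal at the cut site (TPB), a category and a p-value of the authors. No source used here names the trimming, aligner, callers or build. Among the known miRNAs, 6 lines were empty in the copy used and are not analysed here.

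The entry with the most reads was kept per distinct sequence; reads summed to 5347700 in the chilled and 3856902 in the control library, and to 472712 and 459783 without miR3522. Reads were rounded to whole numbers and scaled with edgeR 4.0.16 (TMM, R 4.3.3); DESeq2 1.42.0 size factors were an alternative. The log2 ratio has a pseudocount of 1 normalised read, and a 2-fold difference was counted where a library had at least 10. Intervals of ratios are exact conditional binomial ones at 95%. For shifts of the arm ratio they are exact conditional intervals of an odds ratio (SciPy 1.17.1). The code for log2 ratios and their intervals was tested on simulated data, and the rest of the code was not. Sequences were aligned without gaps. NB-LRR targets were found by the words NB-ARC, NBS, LRR, TIR or disease resistance in the annotation; 0 of the 5 target loci matched RefSeq's gene table. All 10 sequences passed the minimum and are named, as are all 5 loci. The members, the 20000-base window and the lists were chosen with earlier results of these data known.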

Additional observations from a re-analysis of the deposited data

How the results depend on the processing

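No paired analysis was possible because each condition had 1 library, so leaving out a replicate was not possible either. Against TMM, log2 ratios moved by -0.03 with DESeq2 size factors, -0.23 with the same table total, 0.24 with raw reads, 0.20 with the total without miR3522 and -0.06 with the median ratio, and slightly less for the scarcest sequences because of the pseudocount. The miR482 family sum stood at -0.40, 0.076, 0.036 and -0.23 under the last 4 of these, so its sign depends on the scaling; the miR2118 sum stood at 0.22, 0.69, 0.65 and 0.38, and the miR2109 sum at -0.46 with raw reads. Of the 10 sequences, the number at least 2-fold higher was 1 (miR2118a-5p) with raw reads and 1 (the same sequence) when the total left out miR3522. It was 0 under the other settings, and 0 were lower under each. Over all sequences tested, 47 of 218 were higher and 25 lower with raw reads. With the total without miR3522, 40 of 212 were higher and 26 lower. With all entries of a sequence summed, the 3p share of all miR482 reads was 12.35% chilled and 8.86% control (6.59% and 4.64% with 1 entry). That of the miR482a and miR482c hairpins was then 5.13% chilled and 3.81% control. That of miR482b-3p against miR482b-5p alone was 92.75% chilled and 91.78% control. A pseudocount of 0.5 and a minimum of 100 normalised reads, which 7 of the 10 pass, changed no call among the 10 sequences. Restricting the degradome to categories 0 and 1, or to an authors' p under 0.05, left 0 pairs of these families and gave no value. MIR2109-p3, miR482b-5p and MIR482e-p5 are limited by depth: their intervals span over a 2-fold range.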

Other observations

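miR482b-5p is deposited with an undetermined base at position 9, where the hairpins of chromosomes 10 and 20 both have G, and its degradome pair is listed for that sequence. Its reads are whole numbers although 2 hairpins hold it, while pvu-miR482-5p, which occurs in 1 of the 348 hairpins, has a fraction of 0.5 in both libraries; how the deposited reads were shared over loci could not be read from these values. The control reads of miR2118a-3p have a fraction of 0.8333, and its chilled reads none. MIR482e-p5, which abuts miR482b-5p on the chromosome 20 hairpin, had 65 chilled and 45 control reads, more than the 34 and 25 reads of miR482b-5p itself.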
